A study of Homo sapiens with 8 samples.

Results

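Collagen genes were described across 2 prostate cancer cell lines with and without added TRIB1. The collagens were taken as every gene whose symbol follows the human pattern for a collagen chain (COL, type number, A, chain number). That gave 44 genes of the 57905 in the expression table, and 27 of them had a mean of at least 1 TPM (a transcript level divided by gene length and scaled to the same total in each library) in at least 1 group. DU145 was established from a brain metastasis and PC3 from a bone metastasis of prostate cancer. Each line received a lentivirus that overexpresses TRIB1 or an empty lentivirus, and 2 RNA-seq libraries were made of each line with each virus, 8 in all. The controls thus carry a virus too, and are called controls below; the cells with added TRIB1 are called TRIB1 libraries. The sources used here do not give the promoter driving TRIB1, its dose, the time after infection or whether the cells were clones or pools. Nor do the labels say that the libraries of a group came from separate cultures, so the p-values reflect how these libraries scatter and nothing wider.

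Collagens are secreted or membrane-bound proteins whose chains wind around each other into a triple helix. Types built of different chains usually need those chains made together to assemble. Fibrillar collagens form the fibrils of connective tissue, collagen IV forms the mesh of basement membranes, collagen VI forms beaded filaments around cells, and the fibril-associated (FACIT) collagens decorate fibrils. Epithelial cells mainly make basement membrane and membrane-bound collagens, while fibroblasts make most fibrillar collagen in tissue, and carcinoma cells in culture can make both.

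TRIB1 stood at 10.1 and 7.94 TPM in the DU145 control libraries and at 69.4 and 62.3 TPM in the DU145 TRIB1 libraries, and its means in PC3 were 48.0 ± 3.99 TPM (SD, n = 2) in the controls and 243 ± 2.52 TPM (SD, n = 2) with TRIB1. It was higher in every TRIB1 library than in any control of the same line. Since TPM keeps no read totals, the depth of the libraries is unknown. The second DU145 TRIB1 library stood apart in that the abundant short RNAs RN7SL1 and RN7SL2 took 3.17% of its TPM, against 1.27% to 2.24% in the other libraries. Of 8 fibroblast markers, DPT, FAP and LUM were listed at 0 in all DU145 libraries. PDGFRB of this list was at 2.33 and 2.65 TPM in DU145 controls and at 2.45 and 2.97 TPM with TRIB1. The list summed to 3.52 to 4.13 TPM in DU145 controls and to 3.66 to 4.03 TPM in DU145 with TRIB1. Over all 8 libraries it summed to 2.42 to 6.77 TPM. In PC3 this sum was higher with TRIB1 (6.34 to 6.77 TPM) than in the controls (2.42 to 2.44 TPM), with LUM at 3.60 and 2.93 TPM in the TRIB1 libraries. The 5 epithelial markers EPCAM, KRT8, KRT18, KRT7 and CDH1 summed to 1068 to 1071 TPM in the PC3 controls and to 2957 to 3087 TPM in PC3 with TRIB1. In DU145 they summed to 2077 to 2168 TPM in control libraries and to 1950 to 2120 TPM with TRIB1. Endothelial markers summed to at most 3.88 TPM, and 5 leukocyte markers, mostly CD68, summed to 27.9 to 33.6 TPM in the DU145 controls, 8.58 to 9.33 TPM in DU145 with TRIB1, 19.4 to 23.0 TPM in the PC3 controls and 33.0 to 34.6 TPM in PC3 with TRIB1. PTPRC and CD3E of this list were under 1 TPM in all 8 libraries. The part of these markers in the collagen results was not tested.

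Without added TRIB1 the lines made different collagens. DU145 controls were led by COL18A1, the collagen XVIII chain of basement membranes and the source of endostatin, at 299 and 281 TPM. PC3 controls were led by the collagen VI chains COL6A1 at 1438 and 2652 TPM and COL6A2 at 909 and 1053 TPM, and by COL13A1, a collagen that spans the cell membrane, at 317 and 356 TPM. Of the 27 measured collagens, 12 were higher and 10 lower in PC3 than in DU145 controls at a limma adjusted p below 0.05, against 18.6% of all 25982 tested genes higher and 28.4% lower. With median-of-ratios scaling, which moved the all-gene median by 0.18, these shares were 23.9% higher and 22.0% lower, and the collagens 12 higher and 7 lower. Of the 27, 9 reached 1 TPM in the controls of 1 line alone, which favours a difference, and among the other 18 collagens 8 were higher and 6 lower. With a log2 difference beyond 1 in size as well, 11 of the 27 were higher and 3 lower, against 9.78% and 15.7% of all genes. Among the 18 collagens not tested through 1 line alone, 7 were higher and 1 lower by that measure. The median log2 difference of the 27 (PC3 minus DU145, on log2(TPM + 1)) was -0.12, beside -0.18 for all genes. After median-of-ratios scaling they were 0.15 and 0.

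**Figure D1:**
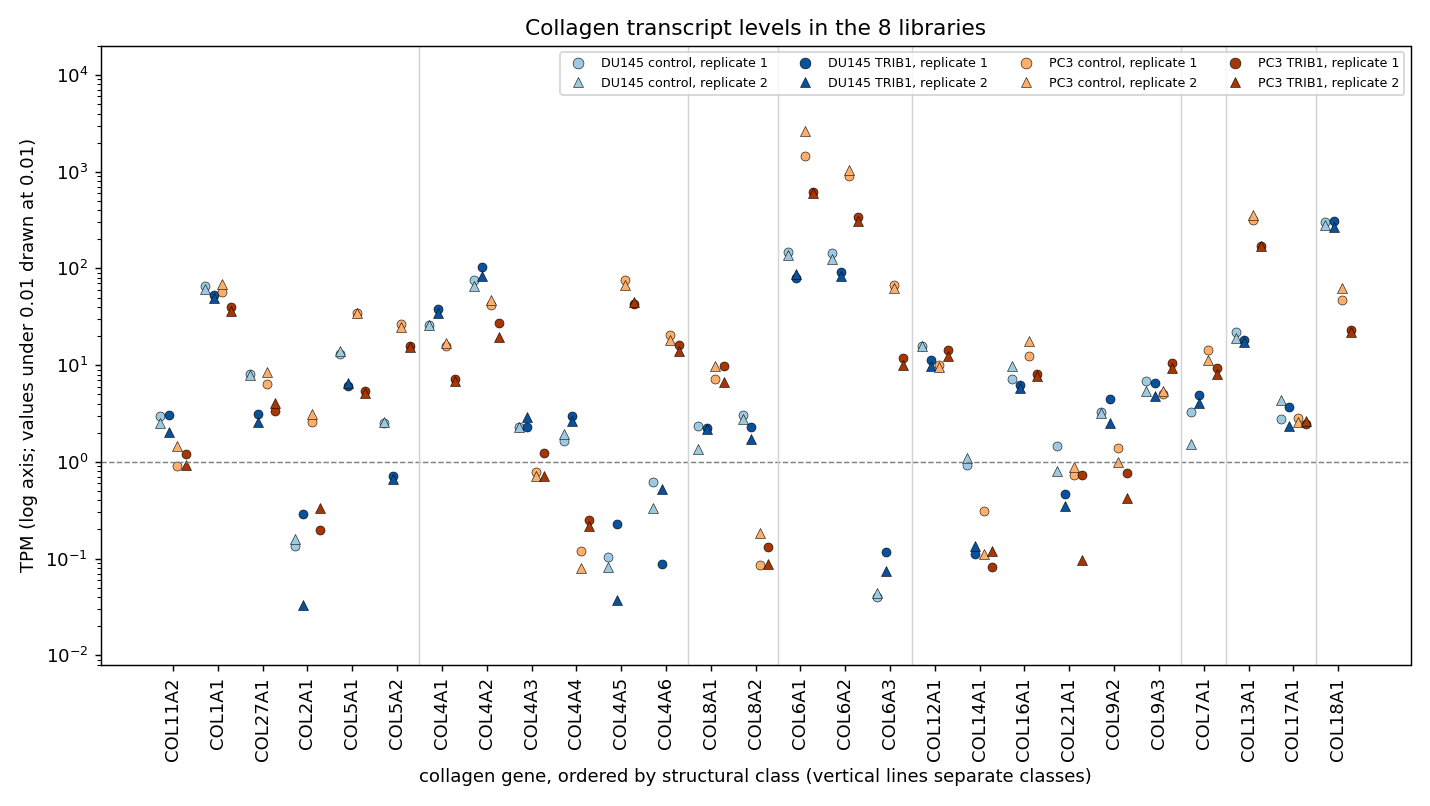
Level of each of the 27 measured collagen genes in the 8 libraries, in TPM on a log axis, grouped by structural class; colours mark the group, circles replicate 1 and triangles replicate 2, and the dashed line marks 1 TPM. COL4A5 and COL6A3 sit far below 1 TPM in all 4 DU145 libraries and above 10 TPM in all 4 PC3 libraries, and the PC3 TRIB1 points lie below the PC3 controls for COL5A1, COL6A1, COL6A2 and COL6A3.

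Several single chains were found in 1 line and hardly in the other, and those under 1 TPM throughout a line are given as levels with no test. COL4A5, a chain of the collagen IV network, was at 0.104 and 0.0812 TPM in the DU145 controls and at 75.3 and 66.6 TPM in the PC3 controls. Its neighbour COL4A6 was at 0.619 and 0.332 TPM in DU145 controls and at 20.6 and 18.3 TPM in PC3 controls. Both chains were thus PC3 transcripts in these libraries, with no overlap between the lines. COL6A3, the largest collagen VI chain, was at 0.0398 and 0.0445 TPM in DU145 controls and at 66.7 and 63.5 TPM in PC3 controls. DU145 therefore carried COL6A1 and COL6A2 transcripts at 126 to 150 TPM in its controls with hardly any of the chain that completes the usual collagen VI trimer. On the other side, COL4A4 stood at 1.64 and 1.96 TPM in DU145 controls and 0.118 and 0.0803 TPM in PC3 controls, and COL8A2, a short-chain network collagen, at 3.04 and 2.77 TPM against 0.0862 and 0.185 TPM. COL4A3 (mean 2.28 TPM against 0.745), COL9A2 (3.31 and 3.22 against 1.40 and 1.00 TPM) and COL11A2 (2.76 against 1.17 TPM) were also lower in PC3 controls. COL7A1, the anchoring fibril collagen, was at 3.27 and 1.51 TPM in DU145 controls and 14.4 and 11.3 TPM in PC3 controls, and COL8A1 at 2.33 and 1.35 against 7.15 and 9.79 TPM. COL1A1 did not pass the test between the lines, with means of 63.9 ± 3.48 TPM in DU145 and 63.2 ± 8.22 TPM in PC3 (SD, n = 2 each), nor did COL17A1, COL21A1, COL27A1 and COL9A3. The calls of COL4A2, COL9A2, COL11A2 and COL16A1 between the lines were each lost without 1 or more single libraries, COL4A2 and COL9A2 among them without any 1 control library (adjusted p up to 0.163 and 0.113).

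Collagen IV chains lie in pairs that start next to each other and run in opposite directions, so their start regions are shown here beside the levels of each pair. The letters are from RefSeq on GRCh38.p14, plus strand for the pairs, and capitals mark 4 motifs searched on both strands. These were TATAAA of the TATA box, CCAAT bound by NF-Y, GGGCGG bound by Sp-family factors, and CACCTG bound by the ZEB and SNAI repressors. The COL4A1 to COL4A2 stretch is chr13:110307158-110307283, the whole interval between starts that lie 127 bases apart. For COL4A6 to COL4A5 (chrX:108439588-108439708, starts 380 bases apart) and COL4A4 to COL4A3 (chr2:227164374-227164455, starts 419 bases apart) the stretch is where the 250 bases upstream of both starts overlap.
COL4A1-COL4A2: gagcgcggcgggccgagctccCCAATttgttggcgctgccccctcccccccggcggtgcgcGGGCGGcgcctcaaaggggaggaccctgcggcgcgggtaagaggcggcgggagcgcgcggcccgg
COL4A6-COL4A5: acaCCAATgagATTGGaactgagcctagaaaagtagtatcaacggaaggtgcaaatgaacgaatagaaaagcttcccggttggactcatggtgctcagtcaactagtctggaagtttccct
COL4A4-COL4A3: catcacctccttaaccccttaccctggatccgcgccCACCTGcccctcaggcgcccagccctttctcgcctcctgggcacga
The first interval is 80.2% G and C and holds 1 CCAAT and 1 GGGCGG, the second is 44.6% G and C and holds CCAAT once on each strand, and the third is 67.1% G and C and holds 1 CACCTG. In these libraries the first pair was transcribed in both lines, the second in PC3, and the third at 1.64 to 2.99 TPM in DU145.

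For comparison the 250 bases upstream of the start of COL5A1 (chr9:134641553-134641802, plus strand) and COL6A3 (chr2:237414165-237414414, minus strand) are shown, since these were the collagens with the largest log2 falls in PC3.
COL5A1: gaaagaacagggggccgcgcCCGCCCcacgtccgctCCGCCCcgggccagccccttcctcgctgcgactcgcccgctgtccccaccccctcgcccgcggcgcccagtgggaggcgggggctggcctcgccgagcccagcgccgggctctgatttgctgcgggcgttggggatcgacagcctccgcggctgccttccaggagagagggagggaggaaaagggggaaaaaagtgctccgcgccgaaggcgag
COL6A3: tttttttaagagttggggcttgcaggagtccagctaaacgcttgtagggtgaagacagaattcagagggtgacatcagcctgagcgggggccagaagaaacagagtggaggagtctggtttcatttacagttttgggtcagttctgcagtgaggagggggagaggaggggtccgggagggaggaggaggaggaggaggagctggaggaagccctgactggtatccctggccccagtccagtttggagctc
The COL5A1 stretch is 74.0% G and C and holds GGGCGG 2 times, both on the reverse strand, and the COL6A3 stretch is 56.0% G and C and holds none of the 4 motifs. RefSeq promoter windows of 300 bases (250 before a start and 50 after) were matched for 20 of the 27 measured collagens, 28 windows in all. GGGCGG was in 64.3% of these 28 windows and in 45.0% of all 35116 windows, CCAAT in 25.0% and 34.6%, CACCTG in 17.9% and 20.6%, and TATAAA in 17.9% and 11.5%. These are matches of letters and were not tested.

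In PC3, collagen transcripts were mostly lower with TRIB1. Of the 27 measured collagens 14 fell and 1 rose at a limma adjusted p below 0.05, against 9.33% of all tested genes that fell and 7.67% that rose. Without COL2A1, which entered the test only through the PC3 controls, 13 fell. The falls took in all 3 measured collagen VI chains, 5 of 6 fibrillar chains (4 of 5 without COL2A1) and 3 of 6 collagen IV chains, together with COL18A1, COL13A1 and COL16A1. Their median log2 change over the 27 was -0.68, beside -0.01 for all genes. With the added requirement of a log2 change beyond 1 in size, 7 collagens fell and 0 rose by limma, against 2.67% and 2.52% of all genes, and 0 rose past that size at an unadjusted p below 0.05 either. Without COL2A1 the 7 are 6. In 18 of the 27, COL2A1 among them, the PC3 TRIB1 libraries lay below the controls without overlap. In 3 they lay above, against 29.8% and 24.5% of all tested genes. RNA of whole cultures was measured, so fewer cells of a kind and less RNA per cell cannot be told apart. Without the first PC3 TRIB1 library the median log2 change of the tested collagens was -0.70, beside -0.02 for all genes. Without the second it was -0.63, beside 0. Fewer collagens and fewer of all genes then passed as lower, and no collagen turned from a fall to a rise.

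**Figure D2:**
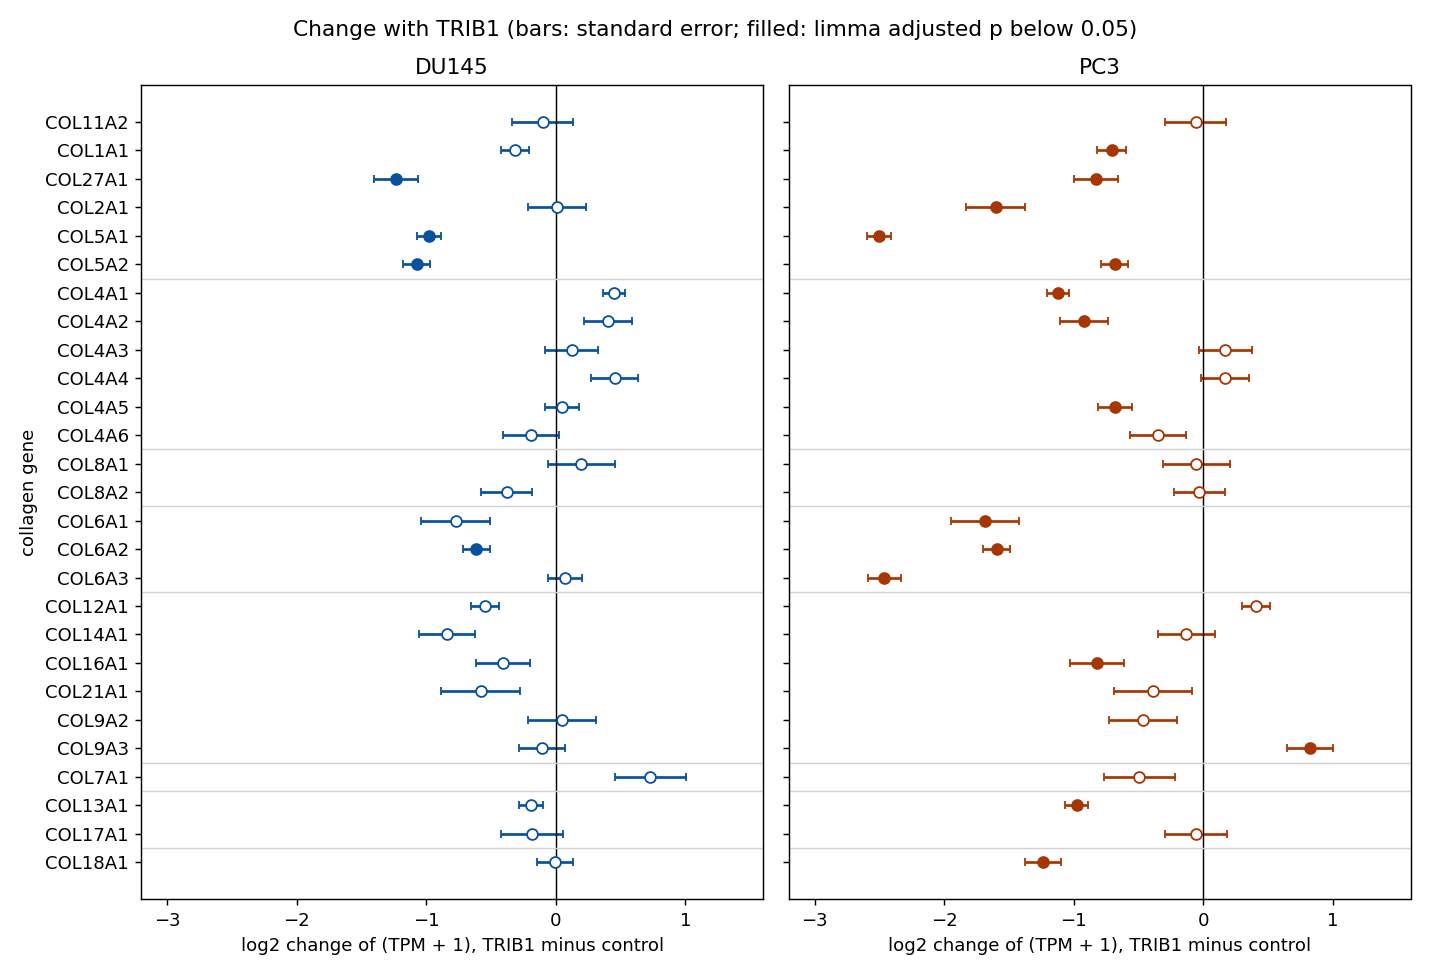
Log2 change of (TPM + 1) from control to TRIB1 for the 27 measured collagens, DU145 on the left and PC3 on the right, in the same gene order; points are estimates, bars are standard errors and filled points have an adjusted p below 0.05. DU145 has 4 filled points, all left of 0, and PC3 has 14 left of 0 and 1 right of it, COL9A3.

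Among the fibrillar collagens, COL5A1 moved most in PC3. This chain of collagen V, which starts and limits the width of collagen I fibrils, was at 34.3 and 34.4 TPM in controls and at 5.36 and 5.11 TPM with TRIB1. The controls and the TRIB1 libraries did not overlap, and the spread within each group was small beside the gap (log2 change -2.50, SE 0.09, adjusted p = 0.000734). Its partner chain COL5A2 stood at 26.9 and 24.7 TPM in control libraries and 15.9 and 15.4 TPM with TRIB1. It fell by 0.68 on the log2 scale (SE 0.10, adjusted p = 0.0111) and lost its call without either PC3 TRIB1 library (adjusted p up to 0.0621). COL1A1, the main chain of collagen I, was at 57.4 and 69.0 TPM in controls and at 40.4 and 36.0 TPM with TRIB1 (log2 change -0.71, SE 0.11, adjusted p = 0.0114). COL1A2, which joins COL1A1 in ordinary collagen I, stayed at or under 0.268 TPM in all 8 libraries. COL27A1, a fibrillar chain known from cartilage, was at 6.37 and 8.44 TPM in controls and at 3.39 and 4.02 TPM with TRIB1 (log2 change -0.83, SE 0.17, adjusted p = 0.0253). The COL1A1 call was lost without the second PC3 TRIB1 library, and that of COL27A1 without either DU145 control, either PC3 TRIB1 library or the second PC3 control (adjusted p up to 0.0723 and 0.124). COL2A1, the cartilage collagen II, reached the 1 TPM needed for testing in the PC3 controls alone, at 2.56 and 3.13 TPM, and stood at 0.195 and 0.332 TPM with TRIB1. COL2A1 entered the test through the group where it is high and so had to differ, and these levels are given as a description and no test of them is read. COL11A2, the remaining measured fibrillar chain, was at 0.897 to 1.45 TPM in PC3 with overlapping groups.

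Collagen VI gave the largest change in TPM. COL6A1 was at 1438 and 2652 TPM in the PC3 controls and at 618 and 596 TPM with TRIB1. The 2 control libraries lay far apart, yet both stood above the TRIB1 libraries (log2 change -1.68, SE 0.26, adjusted p = 0.0118). Its call was lost when the PC3 libraries were fitted alone and without either PC3 TRIB1 library (adjusted p up to 0.0836). COL6A2 was at 909 and 1053 TPM in controls and 341 and 307 TPM with TRIB1 (log2 change -1.59, SE 0.10, adjusted p = 0.00119). COL6A3 was at 66.7 and 63.5 TPM in controls and 11.9 and 10.1 TPM with TRIB1 (log2 change -2.46, SE 0.13, adjusted p = 0.00095). Neither COL6A2 nor COL6A3 had groups that overlapped, and both kept their call in all 17 alternatives run. COL6A5 and COL6A6, chains that can take the place of COL6A3, were at most 0.0437 and 0.216 TPM in any library.

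The basement membrane network was lower in PC3 for its common pair of chains. COL4A1 was at 15.9 and 17.0 TPM in controls and at 7.14 and 6.88 TPM with TRIB1 (log2 change -1.12, SE 0.09, adjusted p = 0.00172). COL4A2, read from the other side of the start region printed above, was at 42.0 and 47.3 TPM in controls and at 27.3 and 19.5 TPM with TRIB1 (log2 change -0.92, SE 0.18, adjusted p = 0.0238). The groups did not overlap for either chain, but the COL4A2 call was lost without any 1 control library of either line or the second PC3 TRIB1 library (adjusted p up to 0.116). COL4A5 was at 75.3 and 66.6 TPM in controls and at 42.5 and 45.0 TPM with TRIB1 (log2 change -0.68, SE 0.13, adjusted p = 0.0212), and this call was lost without any 1 of the 4 PC3 libraries or with a pseudocount of 0.1 or 0.5 (adjusted p up to 0.33). COL4A6, at 20.6 and 18.3 TPM in controls and 16.2 and 13.9 TPM with TRIB1, did not pass (log2 change -0.35, adjusted p = 0.35). COL4A3 and COL4A4 stayed between 0.0803 and 1.24 TPM in PC3 and did not pass either. COL18A1 was at 47.4 and 62.1 TPM in controls and at 23.1 and 21.8 TPM with TRIB1 (log2 change -1.24, SE 0.14, adjusted p = 0.00462). Its gene model overlaps exons of SLC19A1 on the opposite strand, itself at 39.3 to 64.3 TPM over the 8 libraries, and the strand setting behind the values is not stated.

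**Figure D3:**
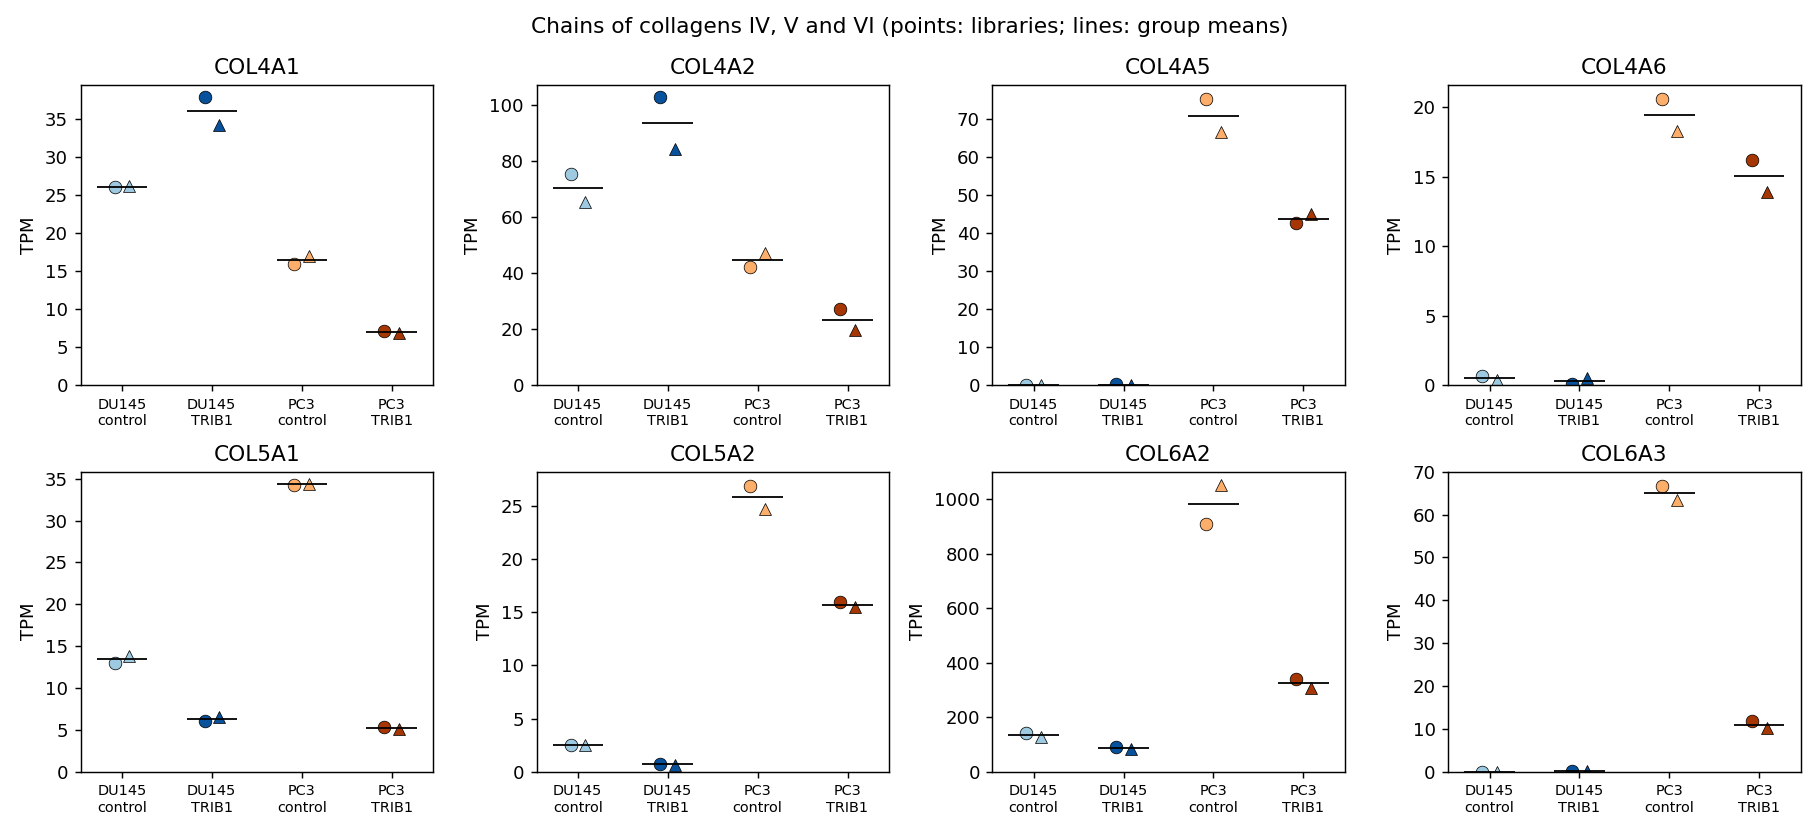
TPM of 8 chains of collagens IV, V and VI in each library on linear axes that start at 0; points are libraries, with circles for replicate 1 and triangles for replicate 2, and lines are group means. COL4A1 is higher with TRIB1 than in controls in DU145 (38.0 and 34.2 against 26.0 and 26.1 TPM) and lower in PC3, whereas COL5A1 is lower in both lines.

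COL13A1, which sits in the membrane at cell adhesions, was at 317 and 356 TPM in PC3 controls and at 170 TPM in both PC3 TRIB1 libraries (log2 change -0.98, SE 0.09, adjusted p = 0.00287). The other measured transmembrane collagen, COL17A1 of hemidesmosomes, was at 2.47 to 2.83 TPM in the 4 PC3 libraries, with groups that overlapped. Of the FACIT collagens COL16A1 was at 12.3 and 17.8 TPM in controls and at 8.12 and 7.77 TPM with TRIB1 (log2 change -0.82, SE 0.21, adjusted p = 0.0471). That call was the least stable of the 14, since it was lost in 14 of 17 alternatives, among them without any 1 library other than the first PC3 control (adjusted p up to 0.189). COL9A3, a chain of the cartilage collagen IX, was the member that rose, from 5.01 and 5.38 TPM in controls to 10.5 and 9.41 TPM (log2 change 0.82, SE 0.18, adjusted p = 0.0303). Leaving out any 1 of the 4 PC3 libraries or either DU145 control ended this call (adjusted p up to 0.148), and the gene overlaps TCFL5 on the opposite strand (10.3 to 17.1 TPM). COL9A2, the other measured collagen IX chain, was at 1.40 and 1.00 TPM in controls and at 0.767 and 0.427 TPM with TRIB1 (log2 change -0.47, adjusted p = 0.307). COL12A1, a large FACIT collagen, was at 10.1 and 9.51 TPM in controls and 14.2 and 12.5 TPM with TRIB1, and narrowly missed the threshold (log2 change 0.41, adjusted p = 0.0541). COL7A1 (14.4 and 11.3 TPM in controls, 9.39 and 8.14 TPM with TRIB1) did not pass, and neither did COL8A1, at 6.65 to 9.79 TPM. COL14A1, COL21A1 and COL8A2 were under 1 TPM in every PC3 library and did not pass.

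In DU145, 4 of the 27 collagens fell with TRIB1 and 0 rose at a limma adjusted p below 0.05, against 2.01% and 0.712% of all tested genes. With median-of-ratios scaling 3 fell and 1 rose, against 1.34% and 0.92% of all genes. At an unadjusted p below 0.05 there were 8 lower and 3 higher, so the 0 rises depend on the cutoff. No share of all genes was computed at that cutoff, and these counts are not read against a background. The 8 include COL14A1, which entered the test only through the DU145 controls, where it is high. COL4A1 was 1 rise with a filter at 5 TPM or with median-of-ratios scaling. The 4 falls were COL5A1, COL5A2, COL27A1 and COL6A2, and all 4 also fell in PC3. The lines share no library, but both were tested in 1 fit with 1 estimate of each gene's spread, so their calls are not independent. The share of all genes that fell in both lines was not computed, so the overlap is not read as a trait of the collagens. COL27A1 and COL5A2 passed the fold requirement too, 2 of the 27, against 0.804% of all genes lower and 0.312% higher by that measure. The median log2 change over the 27 was -0.19, beside -0.04 for all genes. It was 0.0032 without the second DU145 TRIB1 library and -0.30 without the first. Without the first DU145 control it was -0.028, and without the second -0.20. The second TRIB1 library and the first control have the highest and the lowest share of RN7SL1 and RN7SL2, and a link to the median was not tested.

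COL5A1 was at 13.0 and 13.9 TPM in the DU145 controls and at 6.08 and 6.59 TPM with TRIB1 (log2 change -0.98, SE 0.09, adjusted p = 0.00904). COL5A2 was at 2.55 and 2.56 TPM in controls and at 0.711 and 0.665 TPM with TRIB1 (log2 change -1.07, SE 0.10, adjusted p = 0.0115). Both chains of collagen V were thus lower in both TRIB1 libraries than in both controls, and both kept their call in 16 of 17 alternatives. The exception was the fit of the 4 DU145 libraries alone, with adjusted p of 0.0895 for COL5A1 and 0.159 for COL5A2. COL27A1 was at 8.16 and 7.96 TPM in controls and at 3.13 and 2.60 TPM with TRIB1 (log2 change -1.23, SE 0.17, adjusted p = 0.0277). COL6A2 was at 143 and 126 TPM in controls and at 90.8 and 84.4 TPM with TRIB1 (log2 change -0.61, SE 0.10, adjusted p = 0.0464). The groups did not overlap for either gene, but their calls were less stable. COL27A1 lost its call without any 1 DU145 library or either PC3 TRIB1 library, and COL6A2 without any 1 of the 8 libraries (adjusted p up to 0.131 and 0.195).

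In DU145, 12 of the 27 collagens were lower with TRIB1 without overlap of the groups and 6 higher, against 29.7% and 17.6% of all tested genes. The 12 include COL14A1 and COL21A1, which reached a mean of 1 TPM in the DU145 controls alone. With 2 libraries a group such gaps are thus common, and those of collagens that did not pass are given as levels. COL6A1 was at 150 and 138 TPM in controls and at 79.8 and 87.6 TPM with TRIB1 (log2 change -0.77, adjusted p = 0.211), and its adjusted p was 0.0248 without either PC3 control library, whose COL6A1 levels lie far apart, within a range of 0.0248 to 0.494 over the alternatives. COL12A1 was at 15.9 TPM in both controls and at 11.3 and 9.90 TPM with TRIB1 (log2 change -0.54, adjusted p = 0.0671). The collagen IV pair pointed the other way. COL4A1 was at 26.0 and 26.1 TPM in controls and at 38.0 and 34.2 TPM with TRIB1 (log2 change 0.45, adjusted p = 0.0601), and COL4A2 at 75.3 and 65.4 TPM against 103 and 84.1 TPM (log2 change 0.40, adjusted p = 0.336). COL4A4 was at 1.64 and 1.96 TPM in controls and at 2.99 and 2.67 TPM with TRIB1 (log2 change 0.45, adjusted p = 0.282), while COL4A3 was at 2.27 to 2.88 TPM throughout. COL14A1, a FACIT collagen at 1 TPM or more in the DU145 controls alone, was at 0.934 and 1.09 TPM there and at 0.112 and 0.136 TPM with TRIB1 and is given as a description. COL7A1 was at 3.27 and 1.51 TPM in controls and at 4.87 and 4.03 TPM with TRIB1 (log2 change 0.73, adjusted p = 0.248), with the controls far apart from each other. COL18A1, the most abundant collagen of DU145, was at 269 to 309 TPM in the 4 DU145 libraries with overlapping groups, and COL1A1 was at 66.4 and 61.4 TPM in controls and at 52.7 and 49.7 TPM with TRIB1 (log2 change -0.31, adjusted p = 0.221). COL13A1 was at 17.5 to 22.0 TPM, COL9A3 at 4.74 to 6.82 TPM and COL16A1 at 5.84 to 9.75 TPM, and none of these passed. The remaining DU145 collagens above 1 TPM were COL11A2, COL17A1, COL8A1, COL8A2 and COL9A2, at 1.35 to 4.46 TPM, and COL21A1, at 0.350 to 1.46 TPM.

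The change with TRIB1 differed between the lines for 9 of the 27 collagens by the limma test of the difference itself. In 8 the DU145 change lay above the PC3 change (7 without COL2A1) and in 1 below it, against 4.01% and 5.36% of all tested genes. Of the 8, 6 (5 without COL2A1) differed by more than 1 on the log2 scale, against 2.11% of all genes in that direction and 3.01% in the other, where 0 collagens did by limma, also at an unadjusted p below 0.05. COL6A3, counted in the 8 and the 6, differed by 2.53 (DU145 change minus PC3 change). It reached a mean of 1 TPM in PC3 alone, so its difference mostly repeats the PC3 fall. Neither the test of this difference nor its stability is read. Among collagens that reached 1 TPM in both lines, the largest differences were 1.57 for COL4A1 (adjusted p = 0.00346) and 1.52 for COL5A1 (adjusted p = 0.00443). COL6A3 and COL2A1 were at or under 0.290 TPM in all 4 DU145 libraries, so in DU145 there was little transcript in which a fall could be measured. For COL4A1 the level was above 6 TPM in all 8 libraries and the estimates had opposite signs, although the DU145 change did not pass by itself. COL5A1 fell in both lines and by more in PC3. COL4A2 (1.32, adjusted p = 0.0344), COL18A1 (1.23, adjusted p = 0.0198), COL6A2 (0.98, adjusted p = 0.0178) and COL13A1 (0.79, adjusted p = 0.0212) also differed. COL12A1 was the member with the reverse order, at -0.95 (adjusted p = 0.0208). The calls of COL4A1, COL5A1 and COL6A3 held in every alternative run, and the other 6 were each lost without 1 or more single libraries. Leaving out the second DU145 control cost all 6 of them, and either PC3 TRIB1 library cost COL13A1, COL18A1 and COL6A2 (adjusted p up to 0.125 over the 6). For COL5A2 (difference -0.39, adjusted p = 0.17), COL27A1 (-0.40, adjusted p = 0.361) and COL6A1 (0.91, adjusted p = 0.198) the test did not separate the lines. The COL5A2 difference was -1.04 with a pseudocount of 0.1 (adjusted p = 0.029, with 0.029 to 0.287 over the alternatives), and that of COL6A1 was 1.35 without the first PC3 control library (adjusted p = 0.0139, with 0.0139 to 0.392 over the alternatives).

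Summed over all 44 genes, collagen transcripts took 864 and 799 TPM in the DU145 controls, 756 and 684 TPM in DU145 with TRIB1, 3118 and 4538 TPM in the PC3 controls and 1384 and 1303 TPM in PC3 with TRIB1. The PC3 controls were the highest, and their own gap came mostly from COL6A1. Without COL6A1, COL6A2 and COL6A3 the sum was 737 ± 46.6 TPM in the PC3 controls and 401 ± 16.5 TPM in PC3 with TRIB1, and in DU145 it was 553 ± 25.9 TPM in control libraries and 548 ± 52.1 TPM with TRIB1 (SD, n = 2 each). The largest single share was COL18A1 in each DU145 library, at 34.6% to 40.9% of the collagen sum, and COL6A1 in each PC3 library, at 44.7% to 58.4%.

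**Figure D4:**
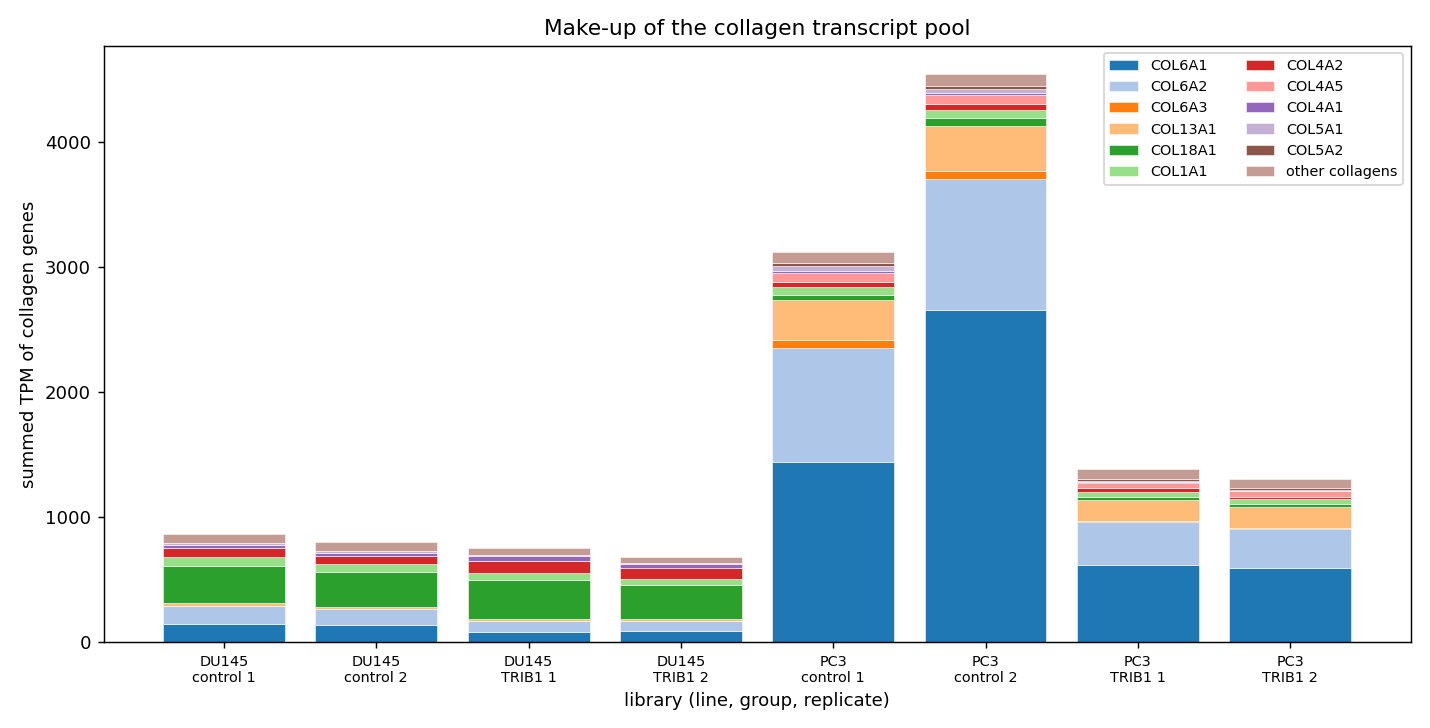
Summed TPM of the collagen genes in each library, stacked by gene; 11 genes are shown separately and the rest together. The PC3 controls reach 3118 and 4538 TPM, mostly COL6A1 and COL6A2, against 1384 and 1303 TPM in PC3 with TRIB1 and 684 to 864 TPM in DU145.

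Some chains that assemble together changed in proportion and others less so. In PC3 the ratio of COL5A1 to COL5A2 was 1.33 ± 0.0814 in the controls and 0.334 ± 0.00435 with TRIB1, while in the DU145 controls it was 5.27 ± 0.225 (SD, n = 2 each). The most common collagen V trimer holds more of the COL5A1 chain than of the COL5A2 chain. At the transcript level this order held in the controls of both lines and in DU145 with TRIB1, but not in PC3 with TRIB1. In DU145 with TRIB1 COL5A1 was at 6.08 and 6.59 TPM and COL5A2 at 0.711 and 0.665 TPM. No ratio was taken there, as COL5A2 was under 1 TPM. The ratio of COL6A2 to COL6A3 in PC3 was 15.1 ± 2.08 in the controls and 29.4 ± 1.23 with TRIB1. The ratio of COL6A1 to COL6A2 was 2.05 ± 0.663 in the PC3 controls and 1.88 ± 0.0893 in PC3 with TRIB1, and 1.07 ± 0.0359 and 0.958 ± 0.111 in DU145. COL4A2 to COL4A1, the pair with the shared start region, was at 2.70 ± 0.278 in the DU145 controls, 2.59 ± 0.179 in DU145 with TRIB1, 2.71 ± 0.0938 in the PC3 controls and 3.32 ± 0.697 in PC3 with TRIB1 (SD, n = 2 each). The latter group held ratios of 3.82 and 2.83, against 2.65 and 2.78 in the PC3 controls. These ratios depend on the gene lengths used for TPM, which the sources used here do not give, and were not tested.

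Genes that make, process and bind collagen were counted from 5 lists, beside which the shares of all tested genes were 9.33% lower and 7.67% higher in PC3, and 2.01% lower and 0.712% higher in DU145. Of 21 tested genes of collagen biosynthesis and folding, 12 fell and 1 rose in PC3, and 2 fell and 2 rose in DU145. P4HA2, a prolyl hydroxylase that stabilises the helix, went from 149 ± 2.35 to 49.8 ± 0.828 TPM in PC3 (log2 change -1.56, adjusted p = 0.000761) and from 76.4 ± 1.27 to 55.7 ± 4.64 TPM in DU145 (-0.45, adjusted p = 0.0367). PLOD1, a lysyl hydroxylase, fell in PC3 from 273 ± 29.3 to 89.8 ± 2.04 TPM (-1.59, adjusted p = 0.000921), and PLOD2, its relative, fell in DU145 from 321 ± 5.85 to 205 ± 18.5 TPM (-0.65, adjusted p = 0.0174). Against the direction of most of this list in PC3, SERPINH1, the collagen chaperone HSP47, rose there from 26.3 ± 0.199 to 44.2 ± 0.391 TPM (0.73, adjusted p = 0.00131; SD, n = 2 throughout). P3H2, a prolyl 3-hydroxylase that acts on collagen IV, rose in DU145 (log2 change 0.71, adjusted p = 0.0328). The DU145 calls of P4HA2, PLOD2 and P3H2 were each lost without some single libraries, among them either PC3 TRIB1 library and the second DU145 control (adjusted p up to 0.14, 0.0929 and 0.111).

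Of 15 tested processing and crosslinking genes, 4 fell and 2 rose in PC3 and 2 fell in DU145. The falls in PC3 included LOXL2, a lysyl oxidase that crosslinks collagen IV, from 164 ± 34.3 to 53.0 ± 5.47 TPM (-1.60, adjusted p = 0.00309), and PCOLCE, which speeds removal of the procollagen C-propeptide (-1.27, adjusted p = 0.00424). ADAMTS14, a procollagen N-propeptidase, rose in PC3 (1.45, adjusted p = 0.00392). In DU145 the falls were TGM2, a transglutaminase, from 216 ± 0.662 to 89.4 ± 1.51 TPM (-1.26, adjusted p = 0.00441), and LOX, another lysyl oxidase, from 4.29 ± 0.247 to 1.29 ± 0.157 TPM (-1.21, adjusted p = 0.0379). LOX fell in PC3 too (-1.15, adjusted p = 0.0135). Of 10 tested receptors, 2 fell in PC3 and 1 in DU145, beside the shares of all genes given above. MRC2, which takes up collagen for breakdown, fell in PC3 from 103 ± 15.0 to 15.6 ± 7.75 TPM (-2.72, adjusted p = 0.00506), and ITGA1 fell there too (-1.54, adjusted p = 0.00871). In DU145 ITGA1 was at 6.62 and 5.10 TPM in controls and 1.49 and 2.40 TPM with TRIB1 (-1.23, adjusted p = 0.051, with 0.0386 to 0.213 over the alternatives), and the difference between the lines did not pass (0.31, adjusted p = 0.572). ITGA2 fell in DU145 (-1.17, adjusted p = 0.00638), except with that line fitted alone (adjusted p = 0.0742). In PC3 it was at 32.1 and 28.5 TPM in controls and 26.0 and 23.7 TPM with TRIB1 and did not pass (-0.27, adjusted p = 0.113). ITGA1 and ITGA2 are integrin chains that bind collagen directly. The LOX call in DU145 was lost without any 1 of the 8 libraries (adjusted p up to 0.14), its PC3 call without the second PC3 TRIB1 library and with PC3 fitted alone (adjusted p up to 0.0655), and that of ITGA1 without the second PC3 control or second PC3 TRIB1 library (adjusted p up to 0.0621).

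Of 14 tested matrix partners, 8 fell and 3 rose in PC3, and 2 fell and 3 rose in DU145. SPARC, a collagen-binding matrix protein, fell in PC3 from 13.1 and 10.6 TPM to 2.54 and 2.97 TPM (-1.77, adjusted p = 0.00479, but 0.062 with a pseudocount of 0.1), and NID1, which links collagen IV to laminin, fell there as well (-0.89, adjusted p = 0.00615). THBS1, a secreted adhesive glycoprotein, rose in PC3 from 249 ± 31.6 to 598 ± 31.1 TPM (1.27, adjusted p = 0.00192). It rose in DU145 as well (0.73, adjusted p = 0.0275), a call lost in 10 of 17 alternatives, among them without any 1 DU145 library or without either PC3 TRIB1 library (adjusted p up to 0.129). FN1, fibronectin, fell in DU145 from 9.36 ± 0.554 to 4.37 ± 0.105 TPM (-0.95, adjusted p = 0.0196), as did TNC, the adhesion-modulating tenascin-C (-1.11, adjusted p = 0.00534, but 0.0841 with DU145 fitted alone), and MATN2, a matrilin that links matrix fibrils, rose there (1.19, adjusted p = 0.0109). In PC3 TNC fell too (-0.54, adjusted p = 0.0109). There FN1 rose (0.79, adjusted p = 0.0093) and was 108 ± 8.06 TPM in control libraries and 187 ± 25.8 TPM with TRIB1. Of 6 tested collagen-cleaving proteases, 3 rose and 1 fell in PC3 and 0 passed in DU145 by limma, also at an unadjusted p below 0.05. MMP14, a collagenase of the cell surface, fell from 272 ± 1.43 to 120 ± 6.23 TPM (-1.17, adjusted p = 0.00166). MMP1, a secreted collagenase, rose from 12.0 ± 0.856 to 29.8 ± 0.202 TPM (1.24, adjusted p = 0.00423, but 0.0775 with a pseudocount of 0.1), and MMP9 from 1.27 ± 0.0138 to 2.98 ± 0.320 TPM (0.81, adjusted p = 0.0299; SD, n = 2 throughout). The calls of FN1 in DU145 (without any 1 DU145 library), MATN2 (without the first DU145 control or the second DU145 TRIB1 library) and MMP9 (without the second PC3 control or the first PC3 TRIB1 library) were lost, with adjusted p up to 0.0991, 0.0564 and 0.0892.

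The other 17 collagen genes had means under 1 TPM in every group and were not tested. They were the fibrillar chains COL1A2, COL3A1, COL5A3, COL11A1 and COL24A1, the FACIT chains COL9A1, COL19A1, COL20A1 and COL22A1, the collagen VI chains COL6A5 and COL6A6, and COL10A1, COL15A1, COL23A1, COL25A1, COL26A1 and COL28A1. Their highest value in any library ranged from 0.0437 TPM for COL6A5 to 0.953 TPM for COL10A1. COL3A1, the partner of collagen I in the stroma of many tissues, reached 0.230 TPM at most, and COL9A1 was listed at 0 in all 4 DU145 libraries.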

How the data were processed

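RNA-seq was made from total RNA of DU145 and PC3 cells with an NEB Ultra RNA library kit, per the labels' protocols. The deposited table gives 57905 genes in TPM, and each column sums to 1000000. TopHat2 2.0.14, HTSeq and the build hg38 are named in the submitters' processing notes, but the sources used here do not give the step from reads to TPM, the gene lengths, the annotation or whether strand was used. Listed gene intervals were not used: 0 of the 44 collagen starts equal those of GENCODE 29, and their build is not stated. Symbols were matched through gene identifiers.

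From the TPM values, log2(TPM + 1) was computed for the 25982 genes that reached 1 TPM as the mean of any group. It was tested with limma 3.58.1 under R 4.3.3, using a mean-variance trend, in 1 fit of 4 group means over 8 libraries (4 residual degrees of freedom, prior 1.89). P-values were Benjamini-Hochberg adjusted over all tested genes. Rose and fell mean an adjusted p below 0.05. A log2 change understates the change of low genes. No count test applies to TPM, and the depth is unknown, so no counting interval was computed. On simulated data with 200 genes changed by a log2 of 2, the fit recovered 87% of them in DU145 (24376 genes tested) and 88.5% in PC3 (24371 genes tested), with 14 and 16 unchanged genes called. The changed genes were drawn from those above about 5 TPM in the controls, so these shares do not apply to lower genes or smaller changes.

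Members and lists were chosen with earlier results of these data known. All measured collagens are named. From the other 5 lists up to 3 genes with the smallest p per line are named, among those past the threshold. The values in the other line of FN1, ITGA1, ITGA2, LOX, THBS1 and TNC were added after they were seen. Alternatives were other pseudocounts, filters and scalings, each line alone, no trend, a replicate block and leaving out each library. Protein sequences were not analysed here. Some of the marker genes checked are not reported here.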

Additional observations from a re-analysis of the deposited data

Results flagged for a closer look

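For 9 collagens the change with TRIB1 differed between the lines by the limma test of the difference (DU145 change minus PC3 change, on log2(TPM + 1)). In the collagen VI filament the difference was 2.53 for COL6A3 and 0.98 for COL6A2. Among the fibrillar chains it was 1.61 for COL2A1 and 1.52 for COL5A1, and in the basement membrane it was 1.57 for COL4A1, 1.32 for COL4A2 and 1.23 for COL18A1. COL13A1 followed at 0.79, and COL12A1 had the opposite sign at -0.95. COL2A1 entered the test only through the PC3 controls, where it is high, so its test is not read. COL6A3 entered only through the PC3 groups, so the test of its difference is not read either. COL6A3 and COL2A1 were near 0 TPM in DU145 throughout, whereas COL4A1, COL4A2, COL5A1, COL6A2, COL12A1, COL13A1 and COL18A1 were well above 1 TPM in both lines.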

How the results depend on the processing

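Over the 17 alternatives no collagen result named past the threshold turned its direction, but many calls were lost. Calls kept in every alternative were 0 of 4 in DU145, 7 of 15 in PC3, 3 of 9 differences and 17 of 22 between the controls. The 7 include COL2A1, whose test is not read, and the 3 include COL6A3, whose difference between the lines is not read. The 17 include COL2A1, COL4A3, COL4A4, COL4A5, COL4A6, COL6A3 and COL8A2, which reached 1 TPM in 1 line alone. That favours a difference, so their stability is not read. The count of DU145 falls (4) was 5 with a filter at 5 TPM, 2 with upper-quartile scaling and 0 with the 4 DU145 libraries alone. Over all genes the DU145 falls (522 of 25982) were 621 of 16094, 251 of 25930 and 43 of 23186 in these settings. With 1 library left out the collagen count stayed or was lower, and falls over all genes were fewer each time. DU145 rises (0) became 1, COL4A1, with a filter at 5 TPM and 1 with median-of-ratios scaling. The count of PC3 falls (14) was 9 with the line alone and 7 to 13 with 1 library left out. The count of PC3 rises (1) was 2 with a filter at 5 TPM, 2 with median-of-ratios scaling and 0 to 1 with 1 library left out, the added gene being COL12A1. Differences with DU145 above PC3 (8) were 3 to 8 with 1 library left out, and those below (1) were 2 with a pseudocount of 0.1 and 0 to 1 with 1 library left out. Between the controls, collagens lower in PC3 (10) were 4 with a filter at 5 TPM and 6 with upper-quartile scaling. Over all genes those lower (7376 of 25982) were 5921 of 16094 and 5669 of 25930 in these settings. Collagens higher in PC3 (12) were 11 with a filter at 5 TPM. With 1 library left out both collagen counts stayed or were lower. The filter at 5 TPM tests fewer genes; the cause of the other shifts was not tested.

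Deviations of same-numbered libraries correlated at -0.0415 between the DU145 groups and -0.0103 between the PC3 groups over 25982 genes. No shared effect of the replicate number was thus seen. Whether libraries were prepared as pairs cannot be told from this, and the labels do not say. With the replicate block the DU145 falls were 2, and over all genes the DU145 calls went from 185 higher and 522 lower to 53 and 170.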
